A study of Homo sapiens with 8 samples.

Results

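Phosphofructokinase and the PFKFB enzymes set the pace of glycolysis, and transcription of their 7 genes, *PFKM*, *PFKL*, *PFKP*, *PFKFB1*, *PFKFB2*, *PFKFB3* and *PFKFB4*, was followed in HCT116 cells, an established human colorectal carcinoma line. Genes were taken by symbol, and all 7 were found among the 23193 genes of the tables. Nascent transcription was measured by PRO-seq, a run-on assay in isolated nuclei whose reads mark polymerases that are engaged in transcription, so that a count reflects current synthesis and not stored mRNA. The 4 groups were WT and HIF1A-/- cells in normoxia, and WT and HIF1A-/- cells exposed to hypoxia (1% O2) for 90 min, with DMSO as vehicle in all of them and 2 replicates per group, 8 libraries in all. In the HIF1A-/- line, exons 3 and 4 of *HIF1A*, the gene for the oxygen-regulated subunit of the HIF1 transcription factor, had been disrupted by homologous recombination with a viral vector.

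Phosphofructokinase (PFK) adds a phosphate to fructose 6-phosphate, the committed step of glycolysis, and its muscle, liver and platelet isozymes are encoded by *PFKM*, *PFKL* and *PFKP*. The PFKFB enzymes each carry a kinase and a phosphatase activity, and make or remove fructose 2,6-bisphosphate, the strongest known activator of phosphofructokinase. HIF factors are stabilised when oxygen falls and are known to raise the transcription of glycolytic genes, which they bind at a short motif, the hypoxia response element, with ACGTG or GCGTG as its core.

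The promoters of *PFKFB4* and of the 3 genes whose rise in WT cells was called with the replicate number as a block are printed here. They are a description, and no test of the counts uses them. RefSeq (GRCh38.p14) gave 17 promoter windows for 6 of the 7 genes, and none for *PFKFB2*. Each window was found once, base for base, in GRCh37, the build used for counting, is 300 bases long and runs from 250 bases before a start site to 50 after it. Each line is written 5′ to 3′ on the gene's own strand, and capitals mark ACGTG or GCGTG on either strand.
PFKFB4, chr3:48556754-48557053, minus strand: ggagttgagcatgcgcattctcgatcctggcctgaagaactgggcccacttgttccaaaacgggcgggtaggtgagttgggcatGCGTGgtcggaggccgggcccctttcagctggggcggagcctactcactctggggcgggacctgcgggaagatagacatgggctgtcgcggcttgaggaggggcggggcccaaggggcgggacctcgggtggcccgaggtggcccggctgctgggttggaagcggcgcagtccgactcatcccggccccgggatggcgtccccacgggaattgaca
PFKP, at the start site used for counting, chr10:3104359-3104658, plus strand: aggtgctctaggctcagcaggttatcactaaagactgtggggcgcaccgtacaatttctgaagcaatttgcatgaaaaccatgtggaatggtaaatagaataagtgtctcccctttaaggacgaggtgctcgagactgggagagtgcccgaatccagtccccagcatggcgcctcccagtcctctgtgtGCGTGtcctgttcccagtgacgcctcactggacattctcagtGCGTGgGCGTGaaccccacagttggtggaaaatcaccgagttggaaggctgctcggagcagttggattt
PFKL, chr21:44299803-44300102, plus strand: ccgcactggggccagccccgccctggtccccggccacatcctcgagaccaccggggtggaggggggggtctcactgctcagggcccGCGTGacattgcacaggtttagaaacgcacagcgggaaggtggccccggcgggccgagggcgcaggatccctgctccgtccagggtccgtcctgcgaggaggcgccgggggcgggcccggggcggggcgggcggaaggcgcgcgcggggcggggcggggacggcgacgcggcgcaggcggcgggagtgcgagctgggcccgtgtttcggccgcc
PFKFB3, at the start site used for counting, chr10:6202682-6202981, plus strand: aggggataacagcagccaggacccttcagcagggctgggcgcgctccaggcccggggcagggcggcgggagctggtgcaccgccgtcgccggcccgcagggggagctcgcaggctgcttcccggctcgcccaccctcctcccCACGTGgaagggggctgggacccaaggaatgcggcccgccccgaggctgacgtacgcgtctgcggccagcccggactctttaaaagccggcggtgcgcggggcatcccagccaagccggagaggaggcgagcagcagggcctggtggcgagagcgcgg

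The *PFKFB4* window held 1 GCGTG, which ran from -166 to -162 relative to the start base. The *PFKL* window also held 1 GCGTG, from -164 to -160. The *PFKP* window at the counted start held 3 copies of GCGTG, which began at -61, -19 and -13. In the *PFKFB3* window, 2 ACGTG matches overlapped on opposite strands, from -108 to -104 and from -107 to -103, and together spelled CACGTG. Of the other windows, 3 upstream ones of *PFKP* far before the counted start held 1 match in all, and the upstream window of *PFKFB3* held 1. Among 7 windows of *PFKM*, 2 overlapping ones held the same ACGTG, and both windows of *PFKFB1* held none. Such matches are common: 21.4% of the 35116 windows of all genes held ACGTG, 36.5% held GCGTG and 48.4% held at least 1 of them, against 8 of the 17 windows of these genes. Windows with 3 or more matches made up 10.1% of all. In the 551-bp regions in which reads at the start sites were counted (GRCh37), 5 of the 7 genes and 68.7% of all genes held a match.

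Where reads were counted decides what can be said about each gene. The authors counted reads in 1 TSS region and 1 gene body per gene, the body starting about 1 kb after the start site. The start of the main (MANE Select) transcript in GENCODE v44, lifted to GRCh37, lay inside the counted TSS region for *PFKL*, *PFKFB2* and *PFKFB3* only. For *PFKFB4* it lay 4377 bp after the counted start and so inside the counted gene body, as it did for *PFKFB1*, at 4346 bp. For *PFKM* it lay 3282 bp and for *PFKP* 37060 bp before the counted start, outside both regions. The counted bodies were, in GRCh37, chr3:48555116-48597612 for *PFKFB4*, chr10:3147801-3178997 for *PFKP*, chr21:45720917-45747264 for *PFKL*, chr12:48517430-48540187 for *PFKM*, chr10:6245840-6277508 for *PFKFB3*, chr1:207227620-207251162 for *PFKFB2* and chrX:54959566-55023966 for *PFKFB1*.

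**Figure D1:**
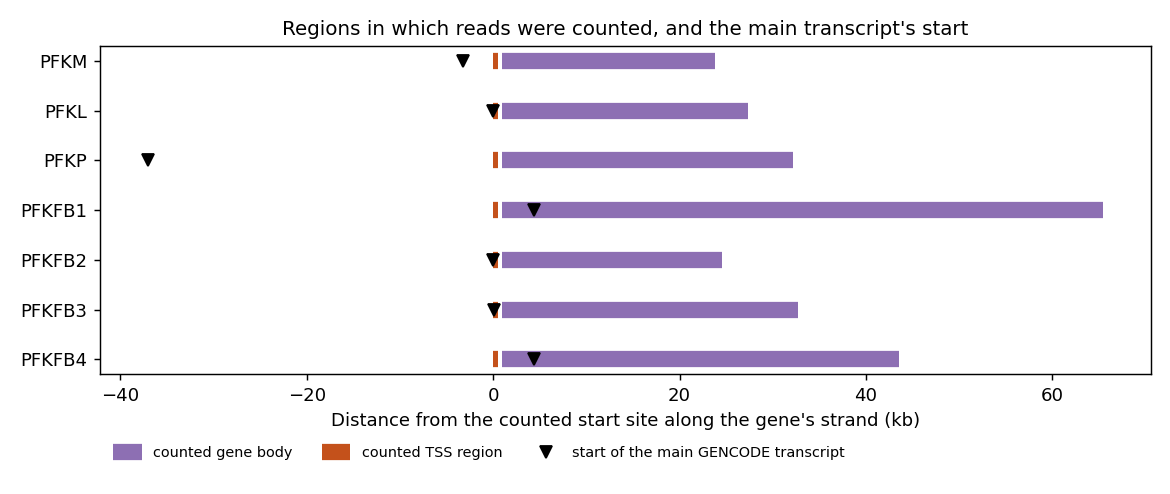
Counted regions of the 7 genes, by distance in kb from the counted start site along the gene's strand. Orange marks the TSS region, violet the gene body and the triangle the start of the main GENCODE transcript, which lies in the gene body for PFKFB4 and PFKFB1 and far upstream for PFKP.

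Total counts ran from 18125234 to 23622392 reads in gene bodies and from 2783581 to 5966348 in TSS regions, where the lowest totals were those of the HIF1A-/- libraries of replicate 1. Of 7 epithelial markers, 6 exceeded 5 CPM (reads scaled to a common library size of 1000000) in every library, *VIL1* stayed at or below 0.622 CPM, and no marker of immune, stromal or endothelial cells exceeded 2.03 CPM. In the gene body of *HIF1A*, the WT libraries had 138 and 150 CPM in normoxia and 130 and 161 under hypoxia, and the HIF1A-/- libraries 165 and 137, then 175 and 158. Its region spans the whole gene, so these counts do not check the deletion. All CPM values are scaled by TMM, which makes most genes equal between libraries, so a change shared by most genes would not be seen.

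*PFKFB4*, the isozyme first described in testis and often found in tumours, rose about 6-fold in WT cells, while in HIF1A-/- cells hypoxia exceeded normoxia by a ratio of at most 1.03. Cells were measured in bulk, so a rise in all of them and a larger rise in some cannot be told apart. Its gene body had 84.9 and 77.9 CPM in the libraries of WT normoxia, and 477.7 and 537.8 CPM in those of WT hypoxia. The HIF1A-/- libraries had 69.2 and 87.6 CPM before and 71.2 and 88.8 CPM after exposure. Both WT hypoxia libraries thus lay far above the other 6, which overlapped one another. By replicate number, the ratio of hypoxia to normoxia was 5.63 and 6.90 in WT cells, and 1.03 and 1.01 in HIF1A-/- cells.

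With edgeR's quasi-likelihood test and Benjamini-Hochberg adjustment over the 16686 gene bodies tested, *PFKFB4* rose by a log2 fold change of 2.64 (SE 0.18, adjusted p = 0.00389) in WT cells. It had the smallest p of all genes there and ranked 21 by fold change. In HIF1A-/- cells its log2 fold change was 0.03 (SE 0.17, adjusted p = 1). The difference between the genotypes in the response was 2.61 (SE 0.24, adjusted p = 0.0616), again with the smallest p of all genes. With the replicate number as a block it was 2.60 (adjusted p = 0.00160). In fits without the block it ran from 2.42 to 2.81 with each library left out. It was not called there without any single WT library or HIF1A-/- hypoxia library. In hypoxia, HIF1A-/- cells were lower than WT cells by a log2 fold change of -2.67 (SE 0.18, adjusted p = 0.000523), while in normoxia the fold change between genotypes was -0.05 (SE 0.17, adjusted p = 0.991). The rise in WT cells was no longer called without WT normoxia replicate 1 (2.70, adjusted p = 0.116) or replicate 2 (2.58, adjusted p = 0.155), a fit in which the lone library is assumed to vary like the other groups.

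Of the phosphofructokinase isozymes, *PFKP* had the largest fold change. This platelet isozyme had 133.3 and 124.5 CPM in WT normoxia and 263.7 and 348.3 in WT hypoxia, against 185 and 119 in the normoxic HIF1A-/- libraries and 208 and 155 in the hypoxic ones. Both WT hypoxia libraries lay above all others, but the 2 HIF1A-/- normoxia libraries were further apart than those of WT normoxia. Its log2 fold change in WT cells was 1.25 (SE 0.24) and did not pass the test (adjusted p = 0.166), whereas with the replicate number as a block it was 1.26 and passed (adjusted p = 0.0232). DESeq2 also called it with all 8 libraries (adjusted p = 0.000212). With each library left out in turn, its log2 fold change in WT cells, without the block, ran from 1.03 to 1.44. Its log2 fold change in HIF1A-/- cells was 0.25 (SE 0.24, adjusted p = 1). The difference between the genotypes, 0.99 (SE 0.34), was not called with or without the block (adjusted p = 0.617 and 1).

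*PFKL*, the liver isozyme, had 107.9 and 104.7 CPM in WT normoxia and 185.8 and 146.9 in WT hypoxia. The HIF1A-/- libraries had 143.9 and 93.5 CPM without and 148.0 and 102.2 with hypoxia, so that the highest HIF1A-/- library exceeded the lower WT hypoxia library. Its log2 fold change in WT cells was 0.65 (SE 0.25, adjusted p = 0.897), and 0.63 with the block, which passed (adjusted p = 0.0604). *PFKM*, the muscle isozyme, had 62.95 and 59.95 CPM in WT normoxia and 62.5 and 58.1 in WT hypoxia, with a log2 fold change of -0.03 (SE 0.16, adjusted p = 0.974). Its HIF1A-/- libraries ran from 47.2 to 62.5 CPM, and it was not called in any comparison with or without the block.

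Of the other PFKFB genes, *PFKFB3*, whose enzyme has the highest ratio of kinase to phosphatase activity, came closest to a call. It had 64.6 and 61.3 CPM in WT normoxia and 84.7 and 81.5 in WT hypoxia, with no overlap, while the HIF1A-/- libraries had 75.3 and 60.9 without and 75.3 and 67.6 with hypoxia. The log2 fold change in WT cells was 0.40 (SE 0.15, adjusted p = 0.897), and 0.40 with the block, which passed (adjusted p = 0.0794). *PFKFB2*, the heart isozyme, ran from 13.7 to 18.1 CPM in the WT libraries and from 15.9 to 21.2 in the HIF1A-/- libraries. In hypoxia both its HIF1A-/- libraries, at 21.2 and 20.6 CPM, lay above both WT libraries, at 18.1 and 14.5. Those HIF1A-/- libraries also lay above both of HIF1A-/- normoxia, at 17.6 and 15.9 CPM, with a log2 fold change of 0.32 (SE 0.19, adjusted p = 1). *PFKFB1*, the isozyme of liver and muscle, had at most 9.53 CPM over a body of 64.4 kb and overlapped between all groups.

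Read over the 7 genes, 1 was called in WT hypoxia against normoxia, beside 0.431% of all genes tested, and with the replicate block 4 were called (*PFKFB4*, *PFKP*, *PFKL* and *PFKFB3*), all higher, beside 5.51%. The median log2 fold change of the 7 was 0.40, against -0.02 over all genes tested. In HIF1A-/- cells 0 of the 7 were called, beside 0% of all genes, and 0 with the block, beside 0.0360%. With the block, the lowest adjusted p of the 7 in HIF1A-/- cells was that of *PFKFB2* (log2 0.32, adjusted p = 0.503). The difference between the genotypes was called for *PFKFB4* alone, beside 0.0539% without and 0.384% with the block. DESeq2 with the block called *PFKP* there as well (log2 1.01, adjusted p = 0.0470). In normoxia the genotypes differed for 0 of the 7, beside 1.78% of all genes (10.3% with the block). In hypoxia they differed for *PFKFB4* alone, beside 4.26%. With the block, *PFKP* (-0.78, adjusted p = 0.0341) and *PFKL* (-0.42, adjusted p = 0.0591) were lower and *PFKFB2* (0.37, adjusted p = 0.0934) higher in HIF1A-/- cells, beside 28.2% of all genes, so that calls in that fit were common.

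**Figure D2:**
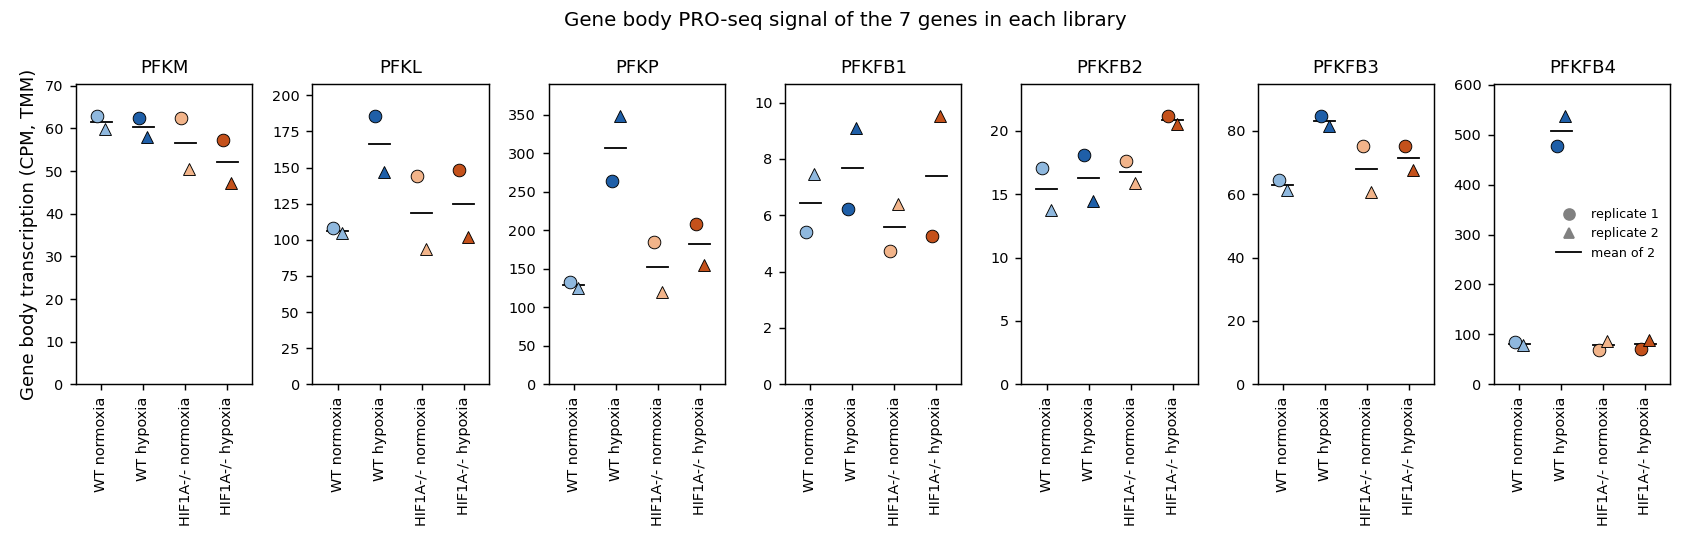
Gene body signal (CPM, scaled by TMM, each axis from 0) of the 7 genes in each library. Circles are replicate 1, triangles replicate 2 and bars the mean of 2; the WT hypoxia libraries of PFKFB4 stand at 477.7 and 537.8 CPM and no other library of it exceeds 88.8.

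Levels of different genes were compared per length of gene body. In WT normoxia the order was *PFKP* with 4.13 CPM per kb ± 0.20 (SD, n = 2), *PFKL* with 4.03 ± 0.09, *PFKM* with 2.70 ± 0.09, *PFKFB3* with 1.99 ± 0.07, *PFKFB4* with 1.91 ± 0.12, *PFKFB2* with 0.65 ± 0.10 and *PFKFB1* with 0.10 ± 0.02. Within that order the libraries of *PFKP* and *PFKL* overlapped, as did those of *PFKFB3* and *PFKFB4*, and the other neighbours did not. In WT hypoxia *PFKFB4* came first with 11.9 ± 1.0 CPM per kb, ahead of *PFKP* with 9.81 ± 1.92 by a narrow margin (lowest library 11.24, against 11.17 for the highest of *PFKP*) that was lost with library totals in place of TMM (11.20 against 11.39), and *PFKL* with 6.31 ± 1.04, while *PFKM* (2.65 ± 0.14) and *PFKFB3* (2.62 ± 0.07) overlapped. In both HIF1A-/- groups the order was that of WT normoxia, with *PFKFB4* at 1.84 ± 0.31 and 1.88 ± 0.29 CPM per kb. For *PFKFB4* these levels include any polymerases near its main start site, which the counted body covers.

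Among the 4 PFKFB genes, *PFKFB4* took 41.0% and 41.2% of the summed CPM per kb in the libraries of WT normoxia, and 76.1% and 79.2% in those of WT hypoxia. Without HIF1A it took 33.7% and 43.3% at normal oxygen and 33.3% and 39.8% at low oxygen. The sum over the 4 genes went from 4.66 ± 0.27 to 15.4 ± 0.8 CPM per kb in the WT line, and in the HIF1A-/- line from 4.79 ± 0.05 to 5.14 ± 0.15. Among the phosphofructokinase genes, *PFKP* took 38.0% ± 0.5 of the WT signal in normoxia and 52.1% ± 8.2 of it in hypoxia. *PFKM* took 24.8% ± 0.0073 and 14.1% ± 1.3. The shares moved the same way in HIF1A-/- cells. There *PFKP* took 40.9% ± 1.5 in normoxia and 45.3% ± 0.4 in hypoxia, and *PFKM* 21.3% ± 2.6 and 18.0% ± 1.4. These shares are descriptions, and no test was run on them. The counted bodies of *PFKFB4* and *PFKFB1*, unlike those of *PFKFB2* and *PFKFB3*, cover the main start site, so the PFKFB shares compare unlike regions.

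**Figure D3:**
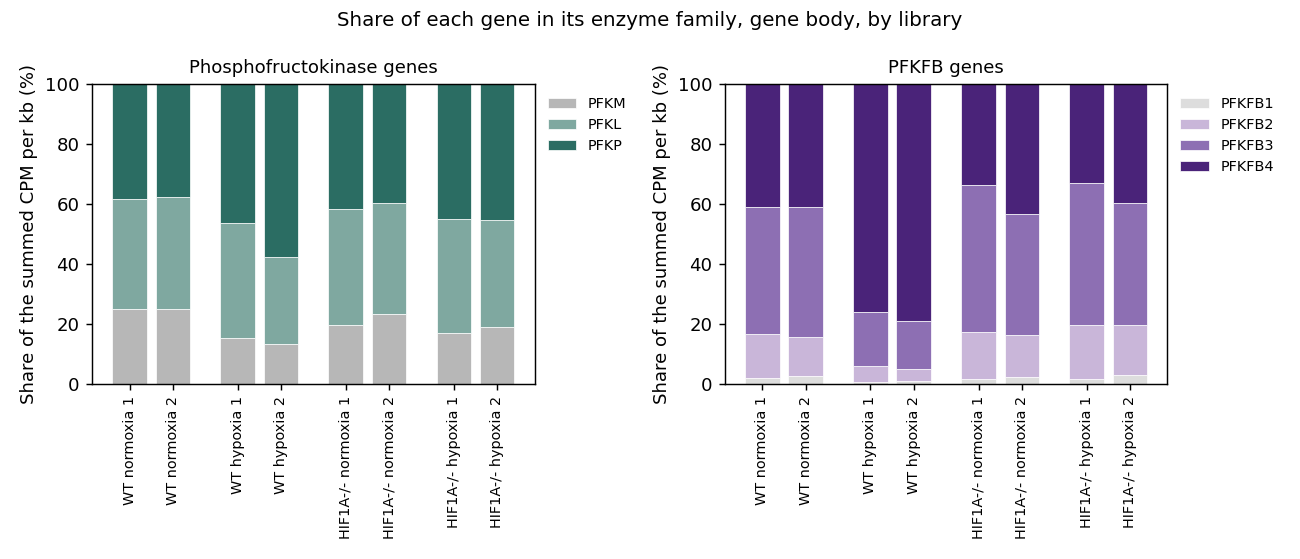
Share of each gene in the summed gene body CPM per kb of its family (percent), for each of the 8 libraries. PFKFB4 takes 76.1% and 79.2% of the PFKFB signal in the WT hypoxia libraries and at most 43.3% in any other.

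In the TSS region, where polymerases pause soon after initiation, no gene of the 7 was called in the fit without the block. There 0 of 7 were called in WT hypoxia against normoxia, beside 0.0460% of the 15212 TSS regions tested, 0 in HIF1A-/- cells (0%), 0 for the difference between the genotypes (0.00657%), and 0 for HIF1A-/- against WT in normoxia (0.657%) and in hypoxia (1.10%). Counts at the TSS region of *PFKFB4* were low, with 4 and 5 reads in the normoxic and 13 and 16 in the hypoxic WT libraries, and 3 and 11, then 3 and 1, in the HIF1A-/- libraries, while its gene body had between 1411 and 12959 reads. Its counted TSS region does not hold the main start site.

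The TSS region of *PFKFB3*, which holds the main start, had 154.1 and 171.5 CPM in WT normoxia and 166.4 and 181.8 in WT hypoxia, with overlap and a log2 fold change of 0.10 (adjusted p = 0.935). That of *PFKL* had 45.8 and 44.1 CPM in WT normoxia and 58.4 and 37.2 in WT hypoxia, and that of *PFKFB2* 110.1 and 99.0 against 90.2 and 82.8. At *PFKP*, the counted region had 15.3 and 13.3 CPM in the normoxic and 26.5 and 30.2 in the hypoxic WT libraries, against 40.9 and 19.98 in the normoxic and 25.5 and 17.7 in the hypoxic HIF1A-/- libraries. With the block, *PFKP* was higher in HIF1A-/- than in WT normoxia (1.03, adjusted p = 0.0461; 4.29% of all regions called). In hypoxia, *PFKFB2* was then higher (0.44, adjusted p = 0.0497) and *PFKFB4* lower (-2.25, adjusted p = 0.0755) in HIF1A-/- cells, beside 14.4% of all regions.

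The pausing index, the density of reads at the TSS region over that in the gene body, describes the main promoter only at the 3 genes whose counted TSS region holds it. In WT normoxia the ratio was 276.0 and 307.6 at *PFKFB2*, 137.0 and 160.8 at *PFKFB3*, and 20.3 and 20.2 at *PFKL*. In WT hypoxia it was 213.1 and 244.2, 112.9 and 128.3, and 15.04 and 12.1 at the same genes in turn. No change in pausing index was called for any of the 7 in WT cells (0.193% of 14494 genes), in HIF1A-/- cells (0%) or between the genotypes (0.0207%), and the log2 change in WT cells was -0.58 at *PFKL* (adjusted p = 0.872), -0.30 at *PFKFB3* (adjusted p = 0.872) and -0.35 at *PFKFB2* (adjusted p = 0.872). In HIF1A-/- cells the ratio was also lower in hypoxia at all 3 genes by replicate number. At *PFKFB2* it was 225.3 and 253.5 in hypoxia against 294.1 and 324.5 in normoxia. At *PFKFB3* it was 138.7 and 167.6 against 147.5 and 178.9, and at *PFKL* 13.6 and 19.4 against 14.1 and 20.3, both with overlap.

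Enzymes that act against the pathway at this step were *FBP1* and *FBP2*, the fructose bisphosphatases, and *TIGAR*, which removes fructose 2,6-bisphosphate. Of these 3, 0 were called in any comparison without the block. *FBP1* had at most 1.16 CPM and *FBP2* at most 3.19. *TIGAR* had 55.6 and 42.5 CPM in the normoxic and 43.5 and 33.8 in the hypoxic WT libraries, and 62.5 and 56.3 against 55.6 and 50.8 in those of HIF1A-/- cells. In hypoxia its log2 fold change in HIF1A-/- over WT cells was 0.46 (adjusted p = 0.286), and 0.47 with the block (adjusted p = 0.0196), in fits that called 4.26% and 28.2% of all genes.

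Other genes of glycolysis and lactate production passed the filter on low counts in 17 cases. In WT cells 13 rose with the block, beside 5.51% of all genes called. Without it 9 rose and 0 fell, beside 0.431%, and the median log2 fold change of the 17 was 1.28. Those that rose were *HK2* (2.53), *GPI* (2.31), *ALDOA* (1.43), *ALDOC* (1.78), *PGK1* (1.83), *PGAM1* (1.37), *ENO2* (1.70), *PKM* (0.90) and *LDHA* (1.66), which act before and after phosphofructokinase in the pathway, and *ENO1* (1.28, adjusted p = 0.101) lay just outside the threshold. *PFKFB4* (2.64) came close to *HK2*, which traps glucose in the cell, and *PFKP* (1.25) to *ENO1* and *PGAM1*, though differences between genes were not tested. Without HIF1A, 0 of the 17 were called, beside 0% of all genes. The difference between the genotypes was called for 0 of them without the block, beside 0.0539% of all genes, with a median of 1.23. With the block it was called for 8, beside 0.384%. In hypoxia 12 of the 17 were called lower in HIF1A-/- than in WT cells, beside 4.26% of all genes called, with a median of -1.17. Small fold changes in WT cells were found for the isozyme genes *HKDC1* (0.19, SE 0.34), *ENO3* (0.22, SE 0.21), *PGAM2* (0.14, SE 0.42) and *LDHB* (-0.13, SE 0.17). None of these passed the test, and likewise for *PFKM* (-0.03) and *PFKFB2* (0.08). The values of *HKDC1* and *PGAM2* were imprecise, and *PGAM2* had a mean of only 1.24 CPM in WT normoxia.

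**Figure D4:**
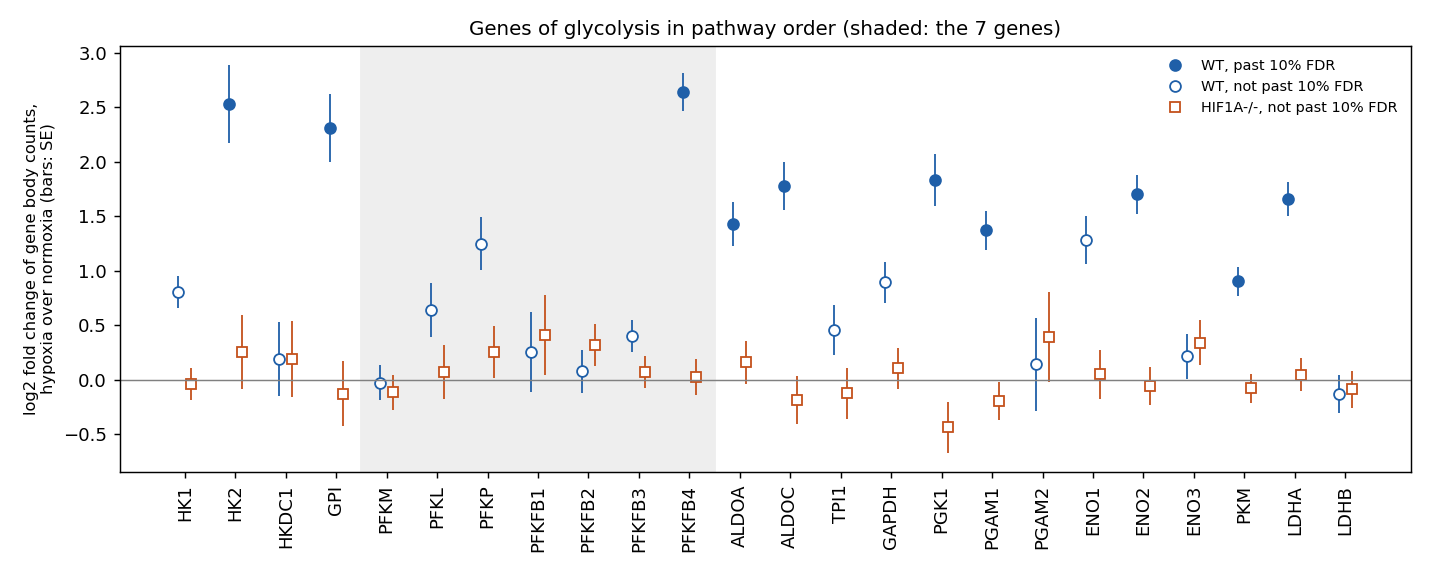
Log2 fold change of gene body counts, hypoxia over normoxia (bars: SE), for genes of glycolysis in pathway order, with the 7 genes on grey. Filled symbols passed the 10% FDR, which in WT cells (circles) 9 of the 17 other genes and PFKFB4 did and in HIF1A-/- cells (squares) none.

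Genes next to the 7 were examined for a shared change. Of 21 genes within 50 kb, 15 were tested. In hypoxia against normoxia 0 were called in WT cells, beside 0.431% of all genes, and 0 in HIF1A-/- cells, beside 0%. *UCN2*, whose counted body lies 1538 bp upstream of that of *PFKFB4* on the same strand, had 30 and 28 reads in the normoxic WT libraries and 35 and 42 in the hypoxic ones. With the block, 1 neighbour was called in WT cells, beside 5.51% of all genes called in that fit. This was *PITRM1-AS1*, whose counted body begins 5796 bp after that of *PFKP* ends on the same strand. Its log2 fold change was 0.59 (adjusted p = 0.897 without and 0.0917 with the block).

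The genes most like each of the 7 were taken by Pearson's r of log2 CPM over the 8 libraries, among 13020 gene bodies. For *PFKFB4* they were *QSOX1* (r = 0.995), a sulfhydryl oxidase, *ZNF395* (0.990) and *RIC1* (0.989). For *PFKP* they were *RASSF7* (0.974), *NIPBL-AS1* (0.974) and *CEP250* (0.971), and for *PFKL* *LONP1* (0.959), a mitochondrial protease, *TPI1* (0.955), the triosephosphate isomerase of glycolysis, and *B3GNT4* (0.952). *PFKFB3* was most like *KDM6B* (0.970), a histone demethylase, *SLC35E1* (0.965) and *PFKL* itself (0.951). *PFKM* was most like *STEAP3* (0.987), *PFKFB2* like *LOC105374366* (0.968) and *PFKFB1* like *SPOCD1* (0.978). With 8 libraries and so many candidates, high values of r arise readily, and the libraries share their groups and replicate numbers, so these are descriptions.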

How the data were processed

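The 8 libraries were grouped by genotype, oxygen and replicate from the sample labels. The deposited files hold raw read counts for each gene. Per the methods, the authors merged 2 sequencing runs, aligned reads to GRCh37 with HISAT2 2.1.0 without splicing, kept a mapping quality above 10 (SAMtools 1.5), and counted with featureCounts (Subread 1.6.2) in 1 TSS region and 1 body per RefSeq gene. Polymerases at other start sites of a gene are therefore missed, or counted in its body. Genes above 0.5 CPM in at least 2 libraries entered edgeR 4.0.16 (R 4.3.3, TMM, quasi-likelihood test) in 1 fit of the 4 group means, with calls at an FDR of 10%. The edgeR fits, DESeq2 without the block and the pausing index fit were run on simulated counts with known changes. Those counts had the same spread setting for all genes and, unlike these data, no deviation shared by same-numbered replicates. DESeq2 with the block was not run on them. For the pausing index, both regions entered 1 fit with a term per library. Same-numbered replicates deviated together in all 6 pairs of groups (r across genes 0.484 to 0.790 in bodies, 0.216 to 0.519 at TSSs), so the numbers were taken to pair libraries, and values with the replicate block are given where they change a call. P-values without the block measure the spread between 2 libraries per group, pooled over the groups. With the block, the difference that same-numbered replicates share is taken out of that spread. Alternatives were DESeq2 1.42.0, other scalings and filters, and leaving out each library. Fits with a library left out did not use the block. Named genes were the 7, their antagonists, genes of glycolysis past or just outside the threshold, neighbours within 50 kb and those of most like pattern. Members and lists were chosen with earlier results of these data known.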

Additional observations from a re-analysis of the deposited data

Results flagged for a closer look

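The hypoxia response of *PFKFB4* differed between the genotypes in the gene body. Its log2 fold change was larger in WT than in HIF1A-/- cells by 2.61 (edgeR's quasi-likelihood interaction test, adjusted p = 0.0616, and 0.00160 with the replicate block), and hypoxia exceeded normoxia by replicate number 5.63- and 6.90-fold in WT cells and 1.03- and 1.01-fold in HIF1A-/- cells. Left-out libraries moved that adjusted p to between 0.0410 and 0.487, as given with the dependence on the processing.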

How the results depend on the processing

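*PFKFB4* kept its direction in gene bodies under every alternative run for WT hypoxia against normoxia (log2 2.55 to 2.73), for the difference between genotypes (2.42 to 2.81) and for HIF1A-/- against WT in hypoxia (-2.85 to -2.50), and the last was called in all of them. Its rise in WT cells lost the call only without WT normoxia replicate 1 (adjusted p = 0.116) or 2 (0.155). The difference between the genotypes lost it without WT normoxia replicate 1 (0.304) or 2 (0.487), WT hypoxia replicate 1 (0.116) or 2 (0.314), or HIF1A-/- hypoxia replicate 1 (0.191) or 2 (0.117), each with a lone library assumed to vary like the others. Fits also differed in the share of all genes called, in WT cells 0.431% without and 5.51% with the block. A larger number of the 7 is therefore not in itself a result about these genes. The shares for the other alternatives are not given here. The number of the 7 genes called in gene bodies in WT cells was 1. It was 4 with the replicate block and with DESeq2 with the block, 2 with DESeq2, library totals, no filter, or only the groups compared, and 0 to 2 over the left-out libraries. For the difference between genotypes the number was 1, 2 with DESeq2 with the block, and 0 to 1 over the left-out libraries. For HIF1A-/- against WT in hypoxia it was 1, 4 with the block, 2 with DESeq2, 3 with DESeq2 with the block, and 1 to 2 over the left-out libraries (*PFKP*, adjusted p = 0.0873 without HIF1A-/- normoxia replicate 1 and 0.0871 without replicate 2). At TSS regions it was 0 for HIF1A-/- against WT in normoxia, and 1, *PFKP*, with the block, with no filter, and without HIF1A-/- normoxia replicate 2 (log2 1.51, adjusted p = 0.0424), so 0 to 1 over the left-out libraries. In hypoxia it was 0, beside 1.10% of all regions, and 2 with the block, beside 14.4%. The replicate block changed no other call of the 7 genes. The cause of these differences was not tested. No called value changed direction. The counted TSS region of *PFKFB4* had at most 16 reads and that of *PFKFB1* at most 20, which limits the precision of their values.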
